A study of Mus musculus with 13 samples.

Results

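Notch receptors, ligands and transcriptional targets were read in 13 murine basal cell carcinoma (BCC) tumors profiled by bulk RNA sequencing. The members are 10 genes taken by symbol from the 21100 rows of the deposited expected-count table, namely the receptors Notch1, Notch2 and Notch3, the ligands Jag1, Jag2 and Dll1, the nuclear effector Rbpj and the targets Hes1, Hey1 and Heyl. All 10 had a value in every tumor and passed the filter on low counts, as did 14390 genes in all. The series compares 9 genetically engineered tumors (GEM-BCC, from 7 mice) with 4 transplanted tumors (Tp-BCC, from 4 mice), and asks how far the transplanted model resembles the engineered one. GEM-BCC tumors grew in the dermis of female Ptch1+/- K14-CreER2 p53fl/fl mice after 3 intraperitoneal doses of 300 µg tamoxifen and 4 Gy of X-rays, with Cre under the promoter of the basal keratinocyte keratin K14. Tp-BCC tumors grew under the skin of the right flank in female Ptch1+/-p53fl/fl mice given 2000000 tumor cells each. Ptch1 heterozygosity and the floxed p53 allele were thus shared by the hosts of both models. The 4 Tp-BCC tumors all trace back to 1 GEM-BCC tumor, so they sample 1 origin, whereas GEM2 and GEM3 came from 1 mouse and GEM7 and GEM8 from another. Only the first Tp-BCC generation received GEM-BCC cells, and each later generation received cells passaged from the Tp-BCC generation before it. The paper does not state the generation of the sequenced Tp-BCC tumors. The GEM-BCC libraries are labelled as batch 1 and the Tp-BCC libraries as batch 2, so model and batch cannot be told apart in any difference below. The age of the mice is not given in the labels.

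Notch receptors are single-pass membrane proteins that are activated by Jagged or Delta-like ligands on a neighbouring cell. Ligand binding exposes the receptor to ADAM and gamma-secretase cleavage, and the freed intracellular domain enters the nucleus, binds the DNA-binding protein Rbpj and recruits Mastermind coactivators. Hes and Hey genes, which encode basic helix-loop-helix repressors, are among the best known genes switched on in this way. In skin, Notch signaling promotes the commitment of keratinocytes to differentiation, while in vessels Notch3 and Heyl are known from mural cells and Notch4, Dll4 and Hey1 from endothelium.

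The coding ends of Hes1 and Heyl are shown to set these target genes beside each other, not to stand for the Hes and Hey families. Capitals mark the 4 codons of the WRPW tetrapeptide of Hes1, by which Hes proteins bind TLE corepressors. In Heyl, whose full name calls it YRPW motif-like, they mark the 4 codons at the corresponding place. These Heyl codons encode Tyr-His-Ser-Trp, not Tyr-Arg-Pro-Trp (YRPW). Sequences are GENCODE vM21 coding sequence on GRCm38, 5′ to 3′ on the coding strand, from 8 codons before the marked codons to the last codon before the stop.
Hes1: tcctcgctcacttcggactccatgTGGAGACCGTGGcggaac
Heyl: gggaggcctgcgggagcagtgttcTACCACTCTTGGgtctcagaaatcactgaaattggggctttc
The Hes1 stretch lies at chr16:30067384-30067425 (plus strand) and the Heyl stretch at chr4:123246562-123246627 (plus strand), each in the last coding exon. The capitals begin at codon 277 of 282 in Hes1 and at codon 313 of 326 in Heyl, so the tail after them is longer in Heyl.

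Levels are given as CPM, counts scaled to a common library total of tested genes after TMM scaling between libraries. Library totals spanned 28075317 to 32629102 expected counts for GEM-BCC tumors and 15388027 to 17494912 for transplanted tumors, and the lowest count of any member in any tumor was 122. The tumor epithelium markers Krt5 (3726 to 10692 CPM), Krt14 (918 to 4378 CPM) and Krt17 (1792 to 6444 CPM) were abundant in every tumor, and none of the 10 epithelial markers listed passed the test between models in the main analysis. Krt14, at -0.61 (adjusted p = 0.204), did pass as lower in Tp-BCC once the GC trend was removed (-1.03, adjusted p = 0.0145) and without TP2 and TP4 (-1.40, adjusted p = 0.0335). The Tp-BCC libraries formed 2 pairs. TP2 and TP4 had relatively more reads on GC-rich transcripts (Spearman correlation of gene deviations with transcript GC content 0.594 and 0.591), TP1 and TP3 relatively fewer (-0.389 and -0.473), and in GEM-BCC the value was 0.365 in GEM1 and -0.312 to -0.15 in the others. TP2 also held adipocyte transcripts (Cfd at 131 CPM against at most 10.1 CPM in the other tumors) and TP4 skeletal muscle transcripts (Acta1 at 79.5 CPM against at most 5.40 CPM). Values without TP2 and TP4 are given beside the results that they moved most.

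Of the 10 members, Hey1 alone passed the test between models (edgeR quasi-likelihood test, Benjamini-Hochberg adjusted p under 0.05 over all tested genes), against 19.4% of all tested genes. No member passed the further threshold of an absolute log2 fold change above 2 that the study applied, which 5.57% of tested genes did. The 95% intervals below are normal intervals around the log2 fold change from its SE. Expression in bulk tumor RNA reflects both how many cells of a type are present and how much RNA each holds, which cannot be told apart here. Tumors of 1 mouse entered the test as separate tumors.

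**Figure D1:**
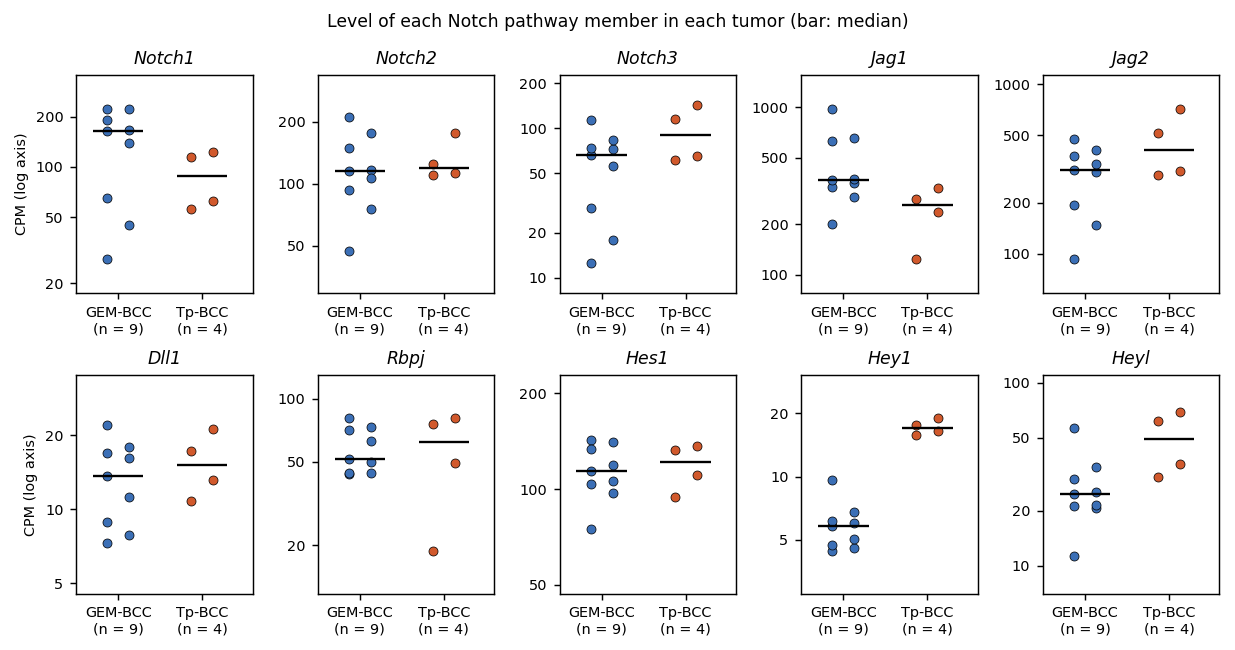
CPM of each member in each tumor on a log axis, with 9 GEM-BCC tumors (blue) and 4 Tp-BCC tumors (orange), 1 point a tumor and a bar at the group median. Hey1 is the panel in which the 4 Tp-BCC points (15.8 to 19.1 CPM) lie above every GEM-BCC point (4.43 to 9.63 CPM), and Notch1 and Notch3 show the widest GEM-BCC ranges.

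Among the targets, Hey1 was higher in every transplanted tumor. Hey1 (chromosome 3) was read at 5.82, 4.43, 4.71, 6.03, 9.63, 4.55, 5.06, 6.13 and 6.79 CPM in GEM1 to GEM9 and at 17.7, 19.1, 16.5 and 15.8 CPM in TP1 to TP4. The ranges did not overlap, a pattern found for 9.95% of all tested genes, and GEM5 was the GEM-BCC tumor nearest to the transplanted ones. The log2 fold change was 1.55 (SE 0.24, 95% interval 1.09 to 2.01, adjusted p = 4.35e-04), or 2.93-fold, and an exact 2-sided permutation test of log2 CPM over all ways of drawing 4 of the 13 tumors gave p = 0.00140, the smallest this design allows. Hey1 was also the member with the least spread in Tp-BCC (SD 0.12 on the log2 CPM scale, n = 4, against 0.35 in GEM-BCC, n = 9). That order did not hold after removal of the GC trend, with SDs in Tp-BCC of 0.15 for Hey1, 0.06 for Notch3 and 0.08 for Jag2. The rise of Hey1 was nearly the same without TP2 and TP4 (1.53, adjusted p = 0.00582) and after removal of the GC trend (1.49, adjusted p = 2.43e-04). It was 1.54 without TP1 and 1.57 without TP3, and these libraries were not left out together.

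Hes1, a repressor that maintains progenitor states in many tissues, showed no such difference. Hes1 (chromosome 16) ranged from 75.0 to 143 CPM in GEM-BCC (median 114 CPM) and stood at 111, 137, 94.2 and 133 CPM in TP1 to TP4. The transplanted tumors lay inside the GEM-BCC range. The log2 fold change was 0.05 (SE 0.20, adjusted p = 0.883) with a 95% interval of -0.34 to 0.43, which does not reach the change of Hey1. Its sign turned with the scaling (-0.04 on library size alone).

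Heyl (chromosome 4) was intermediate. It ranged from 11.3 to 56.9 CPM in GEM-BCC (median 24.6 CPM, GEM5 highest) and was 35.9, 62.2, 30.6 and 69.0 CPM in TP1 to TP4. All 4 Tp-BCC tumors were above the GEM-BCC median, but GEM5 lay above TP1 and TP3. The log2 fold change was 0.85 (SE 0.33, 95% interval 0.20 to 1.51) and missed the threshold at an adjusted p of 0.0839. Without GEM5 it passed (1.06, adjusted p = 0.0220), whereas without TP2 and TP4 it was 0.28 (adjusted p = 0.710). The exact permutation test of log2 CPM for this gene alone gave p = 0.0350, not adjusted for the other genes.

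Relative to Hes1, Hey1 made up a larger part of the target transcripts in the transplanted tumors. The CPM ratio of Hey1 to Hes1 was 0.0314 to 0.0804 in GEM-BCC against 0.119 to 0.175 in Tp-BCC. After removal of the GC trend the ranges came close, at 0.0332 to 0.0855 and 0.0897 to 0.192. This ratio was not tested. Per kilobase of the longest transcript, Hes1 remained the most abundant target in both models, at 78.2 ± 15.2 CPM per kb (SD, n = 9) in GEM-BCC and 80.9 ± 13.5 (SD, n = 4) in Tp-BCC. Hey1 stood at 2.44 ± 0.667 CPM per kb in GEM-BCC and 7.14 ± 0.589 in Tp-BCC, and Heyl at 6.03 ± 2.83 and 10.9 ± 4.19.

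**Figure D2:**
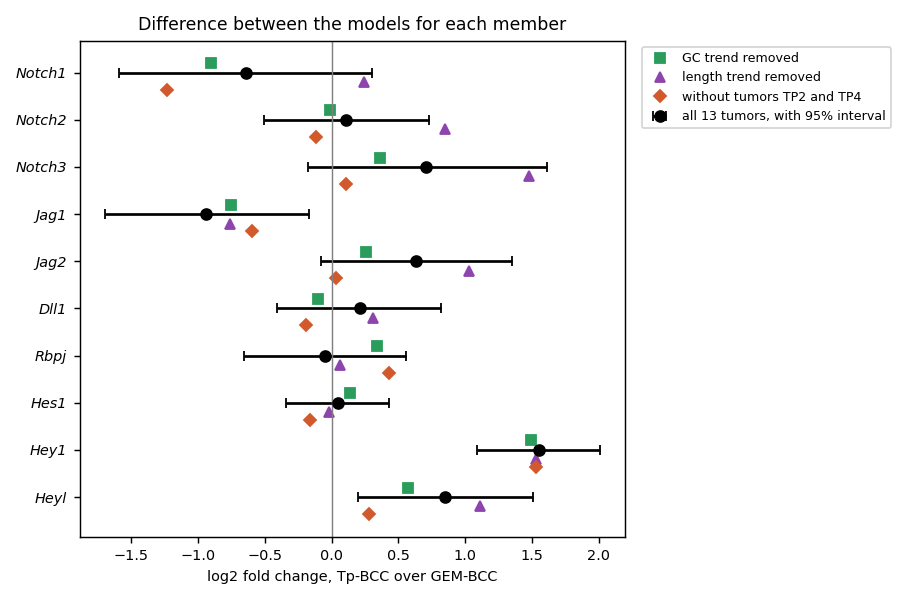
Log2 fold change of each member, Tp-BCC over GEM-BCC, with its 95% interval from all 13 tumors (black) and the values after removal of the GC trend (green), after removal of the length trend (purple) and without TP2 and TP4 (orange). Hey1 stays between 1.49 and 1.55 under these settings, while Notch1, Notch2, Dll1, Rbpj and Hes1 cross 0 under at least 1 of them.

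None of the 3 receptors passed the test between models. Notch1 (chromosome 2), the receptor best known from keratinocyte differentiation, was read at 223, 65.2, 27.9, 191, 164, 44.7, 224, 167 and 139 CPM in GEM1 to GEM9 and at 55.6, 114, 62.5 and 123 CPM in TP1 to TP4. Notch3 (chromosome 17) was read at 114, 18.0, 12.6, 72.9, 66.7, 29.3, 74.1, 83.5 and 56.2 CPM in GEM1 to GEM9 and at 64.9, 115, 61.7 and 143 CPM in TP1 to TP4. Both genes were lowest in the same 3 GEM-BCC tumors, GEM2, GEM3 and GEM6, of which the first 2 came from 1 mouse. Within GEM-BCC the highest tumor exceeded the lowest 8.03-fold for Notch1 and 9.09-fold for Notch3, against 2.21-fold and 2.32-fold in Tp-BCC.

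Notch1 was below the GEM-BCC median of 164 CPM in all 4 Tp-BCC tumors, but the log2 fold change of -0.64 (SE 0.48, 95% interval -1.59 to 0.30, adjusted p = 0.362) was within the spread between tumors. It was -1.23 without TP2 and TP4 (adjusted p = 0.259) and -0.90 with the GC trend removed (adjusted p = 0.151). For Notch3 the log2 fold change was 0.71 (SE 0.46, 95% interval -0.18 to 1.61, adjusted p = 0.282). Without TP2 and TP4 the Notch3 value fell to 0.11 (adjusted p = 0.925). Both receptors have long transcripts, and libraries differed in how levels followed transcript length. The Spearman correlation was lowest in GEM3 (-0.413), followed by TP4 (-0.333) and GEM6 (-0.171). TP4 held the highest Notch3 level of all tumors, and GEM2 (-0.003) was close to GEM5 (-0.008). After removal of this length trend Notch3 passed the test (1.48, adjusted p = 0.0402) and Notch1 turned to 0.24 (adjusted p = 0.754). Notch2 (chromosome 3) ranged from 47.1 to 212 CPM in GEM-BCC (median 115 CPM) and was 113, 177, 110 and 125 CPM in TP1 to TP4. Its log2 fold change of 0.11 (SE 0.31, adjusted p = 0.832) had a 95% interval of -0.51 to 0.73 and turned sign after removal of the GC trend (-0.01) and without TP2 and TP4 (-0.12).

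The balance between Notch1 and Notch3 separated the models, while the levels of both genes overlapped. The CPM ratio of Notch1 to Notch3 was 1.52 to 3.62 in GEM-BCC (median 2.45) and 0.857 to 1.01 in Tp-BCC (median 0.924), with no overlap. The transcripts of both genes are similar in length (9488 and 8016 bases) and the ratio kept its separation after removal of the GC trend, at 1.50 to 3.64 in GEM-BCC against 0.807 to 1.07 in Tp-BCC. The difference of the log2 fold changes was -1.36 in the main analysis, -1.26 with the GC trend removed and -1.24 with the length trend removed. This pair was singled out after its values were seen and the ratio was not tested.

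Expressed per length, Notch3 took a larger share of the 3 receptors in every Tp-BCC tumor. Its share of the summed CPM per kb was 20.8% ± 3.89 (SD, n = 9, range 13.8% to 26.7%) in GEM-BCC and 34.7% ± 4.83 (SD, n = 4, range 31.0% to 41.8%) in Tp-BCC. Notch1 made up 41.6% ± 8.22 in GEM-BCC and 27.1% ± 2.75 in Tp-BCC, where GEM6 (27.3%) overlapped the transplanted tumors. Notch2 made up 37.6% ± 9.96 and 38.2% ± 7.15. With median transcript lengths the Notch3 share was 17.0% to 30.1% in GEM-BCC against 38.0% to 47.3% in Tp-BCC. These shares are descriptions and were not tested.

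**Figure D3:**
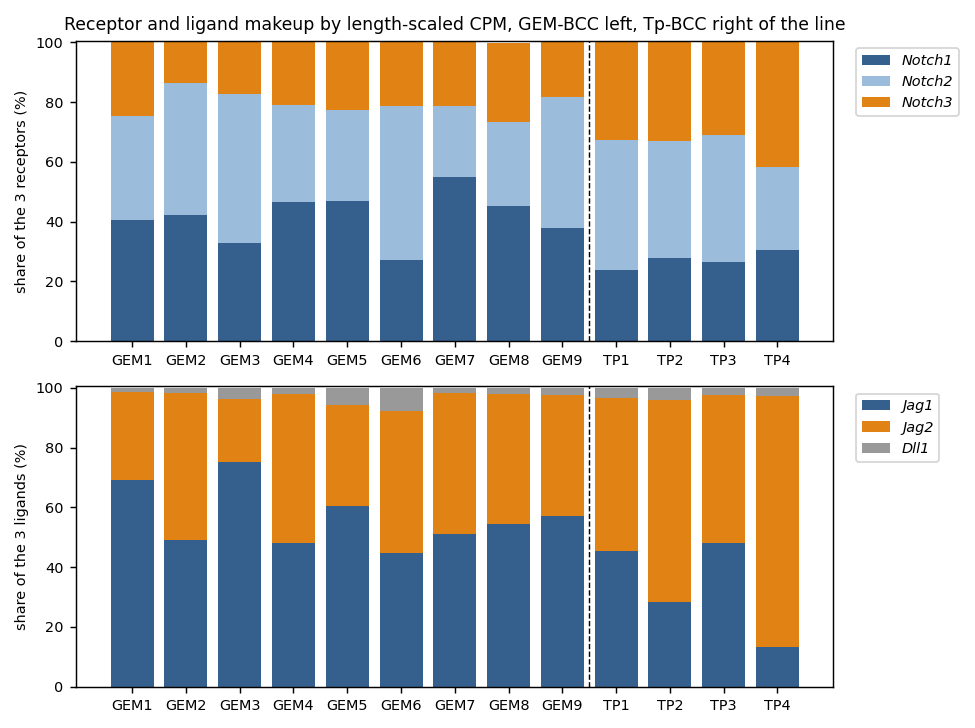
Share of each receptor (top) and ligand (bottom) in the summed CPM per kilobase of longest transcript, in percent, 1 bar a tumor, with GEM-BCC left and Tp-BCC right of the dashed line. The Notch3 part is 31.0% to 41.8% in the 4 Tp-BCC tumors and at most 26.7% in GEM-BCC, and the Jag2 part is largest in TP4 (83.8%) and TP2 (67.7%).

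The Jagged ligands had log2 fold changes of opposite sign, neither of which passed the test. Jag1 (chromosome 2), a Jagged ligand of skin epithelium and many other tissues, was read at 978, 333, 366, 355, 292, 202, 371, 655 and 632 CPM in GEM1 to GEM9 and at 284, 236, 328 and 124 CPM in TP1 to TP4. All 4 Tp-BCC tumors were below the GEM-BCC median of 366 CPM, with TP4 lowest of all tumors. The log2 fold change was -0.94 (SE 0.39, 95% interval -1.70 to -0.17) with an adjusted p of 0.102 by edgeR, and DESeq2, which the study used, placed the same difference just past the threshold (adjusted p = 0.0493). Without TP2 and TP4 the value was -0.60 (adjusted p = 0.438).

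Jag2 (chromosome 12) ranged from 93.4 to 476 CPM in GEM-BCC (median 311 CPM) and was 293, 513, 306 and 714 CPM in TP1 to TP4. TP2 and TP4 exceeded every GEM-BCC tumor while TP1 and TP3 lay next to the GEM-BCC median. The log2 fold change was 0.63 (SE 0.37, 95% interval -0.08 to 1.35, adjusted p = 0.233), and 0.03 without TP2 and TP4 (adjusted p = 0.974). Dll1 (chromosome 17), a Delta-like ligand, was the least abundant of the 3 at 7.27 to 22.0 CPM in GEM-BCC (median 13.7 CPM) and 13.1, 21.3, 10.8 and 17.3 CPM in TP1 to TP4. Its log2 fold change of 0.21 (SE 0.31, adjusted p = 0.671) had a 95% interval of -0.41 to 0.82 and turned to -0.10 after removal of the GC trend.

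Per length, the balance between the ligands lay more toward Jag2 in Tp-BCC. With the longest transcript as the length, Jag1 averaged 56.6% ± 10.1 (SD, n = 9) of the summed CPM per kb in GEM-BCC against 40.2% ± 10.1 for Jag2, and Jag2 led in 3 of 9 tumors. In Tp-BCC the averages were 33.8% ± 16.2 (SD, n = 4) for Jag1 and 63.1% ± 16.1 for Jag2, with TP1 and TP3 close to equal (45.3% and 48.1% Jag1). The order within GEM-BCC depended on the length used, since with median transcript lengths Jag2 led in 6 of 9 GEM-BCC tumors (52.6% ± 10.9 against 43.4% ± 10.6 for Jag1) and in all 4 Tp-BCC tumors (73.1% ± 12.5). The CPM ratio of Jag1 to Jag2 overlapped between models at its edge, with 1.04 to 3.92 in GEM-BCC against 0.174 to 1.07 in Tp-BCC. After removal of the GC trend the ranges were 0.812 to 3.74 and 0.535 to 0.803 and no longer overlapped. Dll1 held 3.15% ± 2.18 and 3.17% ± 0.650.

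**Figure D4:**
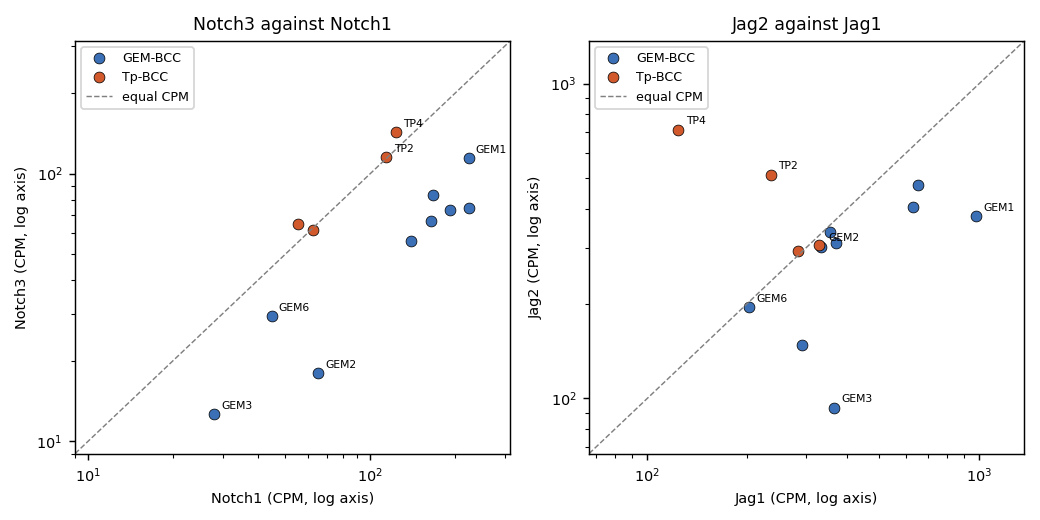
Notch3 against Notch1 (left) and Jag2 against Jag1 (right), CPM on log axes, 1 point a tumor, GEM-BCC in blue and Tp-BCC in orange, with a dashed line of equal CPM and the tumors at the edges named. The 4 Tp-BCC tumors lie on the line of equal Notch1 and Notch3 (ratios 0.857 to 1.01) and all 9 GEM-BCC tumors lie below it, and TP2 and TP4 lie farthest above the line for the ligands.

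Rbpj (chromosome 5), through which all 4 Notch receptors act on DNA, was read at 44.0 to 81.4 CPM in GEM-BCC (median 51.9 CPM) and at 81.4, 49.2, 75.5 and 18.8 CPM in TP1 to TP4. TP4 was lower than every other tumor. The log2 fold change was -0.05 (SE 0.31, adjusted p = 0.929), with a 95% interval of -0.66 to 0.56, and was 0.43 without TP2 and TP4 (adjusted p = 0.286) and 0.34 after removal of the GC trend (adjusted p = 0.220). Its transcript is AU-rich compared with the other members (44.0% GC, against 60.3% for Notch3 and 61.9% for Jag2).

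The way the members varied among transplanted tumors followed the pairing of these libraries. In 7 of 10 members TP2 and TP4 were both above TP1 and TP3, and in Jag1 and Rbpj, the 2 members of lowest GC content, both were below. Removal of the GC trend lowered the SD of log2 CPM in Tp-BCC for 8 of 10 members, from 0.60 to 0.06 for Notch3, from 0.62 to 0.08 for Jag2 and from 0.97 to 0.44 for Rbpj. The exceptions were Hes1 (0.25 to 0.36) and Hey1 (0.12 to 0.15). In GEM-BCC the same step left the SD nearly as it was, at 1.10 and 1.08 for Notch1 and 1.09 and 1.06 for Notch3. Before it, 9 of 10 members had a larger SD in GEM-BCC than in Tp-BCC, and Rbpj was the exception (0.35 against 0.97).

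Tumors from the same mouse were not uniformly alike. GEM2 and GEM3 differed by 1.22 on the log2 CPM scale for Notch1 and by 1.70 for Jag2, against medians of 1.21 and 0.67 over the 34 pairs of GEM-BCC tumors from different mice. They differed by 0.02 for Hes1 and 0.09 for Hey1. GEM7 and GEM8 differed by 0.17 for Notch3 and 0.05 for Rbpj, but by 1.09 for Dll1.

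Receptor, ligand and target levels were set beside each other over the 7 GEM-BCC mice, with tumors of 1 mouse averaged. None of the 6 relations examined passed the exact 2-sided permutation test. Notch3 and Heyl had r = 0.574 (exact p = 0.185, adjusted p = 0.555 over 6 relations) and rho = 0.571 (exact p = 0.200). Without the 2 mice farthest from the Notch3 median r was 0.0673. Leaving out such mice also narrows the range of the first gene or score, so a lower r does not show what a relation rests on. Notch1 and Hes1 had r = -0.247 (exact p = 0.587, adjusted p = 0.804) and rho = -0.143 (exact p = 0.783), with r = -0.113 without 2 mice. Jag1 had r = 0.122 with Hes1 (exact p = 0.802, rho = 0, exact p = 1.00, r = 0.0532 without 2 mice) and 0.113 with Hey1 (exact p = 0.804, rho = 0.286, exact p = 0.556, r = 0.0754 without 2 mice), both with an adjusted p of 0.804. The mean of 14 mural cell markers had r = -0.172 with Notch3 (exact p = 0.705, adjusted p = 0.804, rho = -0.536, exact p = 0.236, r = -0.483 without 2 mice). With Heyl it had r = 0.618 (exact p = 0.150, adjusted p = 0.555, rho = 0.357, exact p = 0.444), and r turned to -0.371 without 2 mice.

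Over the 9 GEM-BCC tumors, the genes whose log2 CPM followed Notch3 most closely, among 10348 of mean log2 CPM at least 3, were Sema4g (r = 0.982) and Cep164 (r = 0.969). For Notch1 they were Csnk1e (r = 0.965) and Ltbp4 (r = 0.959), and for Notch2 Kif13b (r = 0.965) and Adcy9 (r = 0.959). Hes1 was followed by the simple-epithelium keratin Krt8 (r = 0.942) and by Zfp444 (r = 0.938), Hey1 by Cand1 (r = 0.900) and Fgd5 (r = 0.879) and Heyl by R3hdm2 (r = 0.918) and Rffl (r = 0.913). These are the highest of many correlations over tumors that share library effects of GC content and length. After removal of the GC trend r was 0.568 for Hey1 and Cand1 and 0.904 for Hey1 and Fgd5. The remaining pairs then ranged from 0.861 (Hes1 and Zfp444) to 0.981 (Notch3 and Sema4g). Fgd5 was the only 1 of these 12 genes to pass the test between models (log2 fold change 1.06, adjusted p = 0.0225).

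Genes next to Hey1 on the chromosome were mostly lower in Tp-BCC. The 15 nearest tested genes around Hey1 in the RefSeq order (5 on one side, toward the start of the chromosome, and 10 on the other) had a median log2 fold change of -0.58, and 1 of them passed the test in the direction of Hey1. Around Hes1 the median of 20 neighbours was -0.76, and around Heyl -0.47. The median over all tested genes was -0.03. Jag2 had the most neighbours that passed in its own direction (6 of 20, around a median of 0.01).

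The rest of the pathway was read from 9 lists. Leaving aside the suprabasal genes, 73 of 78 listed genes were tested, 12 passed as higher and 7 as lower in Tp-BCC, or 26.0%, beside 11.1% of all tested genes higher and 8.35% lower. Their median log2 fold change was 0.02. Among the other receptors and ligands, all 4 tested were higher in Tp-BCC and 2 passed, with a median log2 fold change of 1.09 in this list. Notch4, the receptor of endothelium, was read at 9.70 to 20.5 CPM in GEM-BCC (median 14.5 CPM) and at 22.3, 40.0, 29.7 and 47.3 CPM in TP1 to TP4. The ranges did not overlap, as for 9.95% of all tested genes. The log2 fold change of Notch4 was 1.16 (SE 0.24, adjusted p = 0.00354). Without TP2 and TP4 it was 0.74 and no longer passed (adjusted p = 0.0866). Dlk1, a Delta-like protein of fetal tissues and preadipocytes that lacks the receptor-activating domain, was at 0 to 0.702 CPM in GEM-BCC and 4.06, 5.98, 5.15 and 12.6 CPM in Tp-BCC (adjusted p = 2.34e-04). Dll4, the main ligand of sprouting endothelium, was 6.36 to 16.7 CPM in GEM-BCC and 13, 24.1, 14.0 and 35.5 CPM in Tp-BCC (0.85, SE 0.30, adjusted p = 0.0559). Dll4 passed with DESeq2 (adjusted p = 0.0371) and with the length trend removed (1.01, adjusted p = 0.0373), but was 0.17 without TP2 and TP4 (adjusted p = 0.765). Dll3 was at 0.474 CPM or less in every tumor and was not tested.

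Among further direct targets, 10 of 13 listed genes were tested, 3 passed as higher and 3 as lower, beside 11.1% and 8.35% of all tested genes. Myc, a growth regulator that Notch induces in T cells, was at 25.1 to 56.2 CPM in GEM-BCC and 107, 165, 98.8 and 141 CPM in Tp-BCC (log2 fold change 1.79, SE 0.24, adjusted p = 1.48e-04, and 1.48 without TP2 and TP4). Dtx1, an E3 ligase named Deltex that is induced by Notch, rose by 1.50 (SE 0.34, adjusted p = 0.00729), but its value was 0.86 without TP2 and TP4 (adjusted p = 0.187). Gata3, a factor of T cells and of the inner root sheath and suprabasal epidermis, was lower, at 25.9 to 110 CPM in GEM-BCC and 21.0, 31.7, 23.0 and 17.9 CPM in Tp-BCC (-1.51, SE 0.32, adjusted p = 0.00444). The feedback inhibitor Nrarp was 33.4 to 224 CPM in GEM-BCC and 37.3, 66.7, 36.8 and 86.0 CPM in Tp-BCC, and its log2 fold change, -0.77 (SE 0.41), did not pass (adjusted p = 0.199). It was -1.38 without TP2 and TP4 (adjusted p = 0.122) and passed with the GC and length trends removed (-1.05, adjusted p = 0.0385). Hey2, at -1.03 (SE 0.54), did not pass either (adjusted p = 0.191) and was read at no more than 1.58 CPM, and Hes5 stayed at or below 0.214 CPM and was not tested.

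The lists of the enzymes and cofactors held calls in both directions, where 11.1% of all tested genes passed as higher and 8.35% as lower. Of 8 glycosylation genes 2 passed as higher, the Fringe enzyme Mfng (1.53, SE 0.34, adjusted p = 0.00679) and the xylosyltransferase Gxylt2 (1.36, SE 0.32, adjusted p = 0.00874). Of 10 cleavage genes 1 passed as lower, the gamma-secretase subunit Aph1c (-0.99, adjusted p = 0.0187), which has a near-identical copy, Aph1b, that can take its reads, and which no longer passed once the GC trend was removed (-0.43, adjusted p = 0.338). Of 7 genes of ligand ubiquitination and endocytosis 2 passed as higher, Neurl1a (1.19, adjusted p = 0.0261) and Dnm2 (0.66, adjusted p = 0.0400), with values of 0.51 and 0.07 without TP2 and TP4. Of 11 turnover genes 1 passed as higher, Dtx2 (0.88, adjusted p = 0.0236), and 2 as lower, Dtx3l (-1.53, adjusted p = 0.0141) and Sel1l (-0.82, adjusted p = 0.0385). None of these 3 passed without TP2 and TP4. Of 8 coactivators 1 passed as higher, the acetyltransferase Kat2a (0.80, adjusted p = 0.0188), and 1 as lower, Snw1 (-1.11, adjusted p = 0.0135), while the Mastermind gene Maml1 stood at 0.67 (SE 0.24, adjusted p = 0.0664), at 0.17 without TP2 and TP4 (adjusted p = 0.710) and at 1.03 with the length trend removed, where it passed (adjusted p = 0.0147). Of 15 corepressors 1 passed as higher, Ctbp1 (0.88, adjusted p = 0.0277).

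Several of these calls were lost when Tp-BCC libraries were left out, in part with little change in the fold, in an analysis that then had 2 or 3 Tp-BCC tumors. Without TP2 and TP4, Gxylt2 still passed (1.84, adjusted p = 0.00384) while Mfng (0.70), Aph1c (-0.95), Kat2a (0.31), Snw1 (-0.62) and Ctbp1 (0.18) did not. Leaving out TP2 alone ended the calls of Neurl1a (1.04), Dnm2 (0.53), Dtx2 (0.78), Dtx3l (-1.38), Sel1l (-0.89), Snw1 (-0.98), Kat2a (0.72), Ctbp1 (0.76) and Aph1c, whose fold was almost the same (adjusted p = 0.0524). Leaving out TP4 alone ended those of Neurl1a (0.86), Dnm2 (0.36), Dtx2 (0.52), Sel1l (-0.65), Kat2a (0.50) and Ctbp1 (0.52). The calls of Dnm2 and Sel1l were also lost when single GEM-BCC tumors were left out, at adjusted p-values of up to 0.0664 and 0.0625, and that of Dnm2 when the counts of tumors from 1 mouse were summed (0.65, adjusted p = 0.0715). Sel1l also lost its call with the GC trend removed (-0.51, adjusted p = 0.0680), on library size alone (-0.85, adjusted p = 0.0501) and without TP3 (-0.84, adjusted p = 0.0568).

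Genes of the suprabasal epidermis, the layers that keratinocytes enter under Notch signaling, were mostly lower in the transplanted tumors. Of 12 tested, 6 passed as lower and 1 as higher, beside 8.35% and 11.1% of all tested genes. Their median log2 fold change was -2.70. Ovol1 and Grhl3, transcription factors of epidermal differentiation, were at 0.696 to 6.97 and 1.15 to 10.9 CPM in GEM-BCC and at most 0.143 and 0.353 CPM in Tp-BCC (adjusted p = 0.00203 and 0.00133). Klf4, a factor of the upper epidermis that is also expressed in other cell types, went the other way, at 42.6 to 79.9 CPM in GEM-BCC and 162, 247, 156 and 185 CPM in Tp-BCC (1.57, SE 0.19, adjusted p = 5.72e-05). Without TP2 and TP4, 3 suprabasal genes passed as lower and 1 as higher. GEM-BCC tumors grew in the dermis and Tp-BCC tumors below it, so site and model cannot be told apart for these genes.

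Endothelial markers were also higher in the tumors in which Hey1 and Notch4 were high. Of all tested genes 11.1% passed as higher and 8.35% as lower. The 14 endothelial markers all had a log2 fold change of 0 or more, with a median of 1.16. Of these, 8 passed as higher and none as lower. Their summed level was 157 to 399 CPM in GEM-BCC against 498 to 690 CPM in Tp-BCC, and none of the 14 was at 0 in any tumor. Cdh5, the endothelial cadherin, was at 29.6 to 68.8 CPM in GEM-BCC and 109, 158, 107 and 109 CPM in Tp-BCC (1.29, adjusted p = 0.00116), whereas Pecam1 was at 27.8 to 83.9 CPM and 78.9, 64.5, 80.2 and 32.9 CPM (0.12, adjusted p = 0.788). Without TP2 and TP4, 4 endothelial markers passed as higher. Of 14 mural cell markers 3 passed as higher and none as lower, with a median of 0.08. None passed without TP2 and TP4, and with the GC trend removed 3 passed as higher and 1 as lower. The mural list summed to 1207 to 2034 CPM in GEM-BCC against 1259 to 2324 CPM in Tp-BCC. In the adipocyte list 5 of 8 genes were tested and all 5 passed as higher (1 without TP2 and TP4). It summed to 0.514 to 3.54 CPM in GEM-BCC against 21.0 to 306 CPM in Tp-BCC. None of the 4 tested muscle markers passed, and the muscle list summed to 6.64 to 16.8 CPM in GEM-BCC and 9.40 to 146 CPM in Tp-BCC. In TP4 Acta1 was at 79.5 CPM and Ckm at 21.9 CPM, against at most 5.40 and 1.41 CPM in the other tumors. The part of vessel, fat and muscle transcripts in the values of Hey1, Heyl, Notch3, Notch4, Dll4 and Dlk1 was not tested.

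The next 3 lists are set beside the shares of all tested genes, 11.1% passing as higher and 8.35% as lower. Of 10 fibroblast markers 3 passed as higher and 2 as lower, with Col1a2 at 4368 to 19738 CPM in GEM-BCC against 4994 to 10583 CPM in Tp-BCC. Of 8 tested immune markers 1 passed as higher, Cd68 (1.31, adjusted p = 0.0292), and 2 as lower. Csf1r (0.29, adjusted p = 0.607) and Adgre1 (-0.14, adjusted p = 0.827) did not pass. Without TP2 and TP4 no immune marker passed in either direction, and with the GC trend removed none passed as lower. Of 7 tested hair and sebaceous markers 3 passed as lower and none as higher, with the follicle keratin Krt79 at 17.6 to 1320 CPM in GEM-BCC against 5.83 to 14.8 CPM in Tp-BCC.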

How the data were processed

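RNA from 13 tumors was sequenced as 1 poly(A)-selected library per tumor. The authors aligned reads with Bowtie2 2.3.4.3 to mouse transcripts (GRCm39) and deposited RSEM 1.3.1 expected counts per gene, not normalized. Here these were rounded, and of 16687 genes valued in every tumor the 14390 reaching 10 counts in 4 or more tumors entered edgeR 4.0.16 in R 4.3.3 (TMM scaling, robust quasi-likelihood F test, no covariate, Benjamini-Hochberg adjustment over all tested genes). The SE is the log2 fold change over the square root of F. Log2 CPM used a prior count of 2. GC content and length came from GENCODE vM21 transcripts (14095 tested genes matched), and trends were removed by lowess with a span of 0.3. The fit was checked on simulated counts. DESeq2 1.42.0, other scalings and filters, and each tumor left out were alternatives. The members and gene lists were chosen with earlier results of these data known. All members are named, with up to 3 of smallest p per pathway list among those passing, and Notch4, Dll4, Dll3, Hes5, Hey2, Nrarp and Maml1 in any case. Markers are named by highest mean CPM, others after their values were seen. TP1 and TP3, the most alike libraries, still differed by more than sampling noise. Tumors of a model come from separate or, in 2 cases, shared mice, and the Tp-BCC tumors from 1 origin, so p-values measure the spread between these tumors only.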

Additional observations from a re-analysis of the deposited data

How the results depend on the processing

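Hey1 kept its direction and passed the test under every alternative run, at 1.44 to 1.67. Counts of members that passed were 1 in the main analysis, 2 with DESeq2 (Jag1 added), 3 with the length trend removed (Notch3 and Heyl added) and 1 to 2 with single tumors left out (Heyl added without GEM5). Of all tested genes 2792 passed, 4790 with the GC and length trends removed, 1484 without TP2 and TP4 and 1545 to 3020 with single tumors left out, the lowest being without TP2 (1836 without TP4). Genes also past the fold threshold numbered 801, 439 under a filter of 10 counts in 10 or more tumors, 478 without TP2 and TP4 and 594 to 853 with single tumors left out. Values that never passed turned sign as follows. Notch1 turned to 0.24 with the length trend removed. Notch2 turned to -0.01 with the GC trend removed, -0.12 without TP2 and TP4 and spanned -0.09 to 0.20 with single tumors left out. Dll1 turned to -0.10 (GC), -0.12 (GC and length) and -0.19 (without TP2 and TP4), spanning -0.02 to 0.35. Rbpj turned to 0.34 (GC), 0.06 (length), 0.44 (GC and length) and 0.43 (without TP2 and TP4), spanning -0.28 to 0.21. Hes1 turned to -0.04 (library size alone), -0.02 (length) and -0.16 (without TP2 and TP4), spanning -0.06 to 0.15. The Dll1 share difference turned to -0.434 percentage points with median transcript lengths and -0.327 with the GC trend removed, and r of Jag1 and Hey1 to -0.0383 with the GC trend removed. The cause was not tested. Of 571 other checks on pathway genes named, 513 kept their side of the threshold, 48 lost the call, 10 gained it and 0 turned sign. Removing GC and length together, leaving out TP2 and TP4, setting missing values to 0 and GC-corrected shares were added after seeing the data. No paired analysis was possible because the models come from different mice and the tumor numbers only name tumors. With 4 Tp-BCC tumors, the intervals of members that did not pass still hold changes of the size they span.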
